A study of Rattus norvegicus with 6 samples.

Results

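The Nr4a receptors and the Krüppel-like factors are transcription factors, many of them known as early genes that answer growth factors, cAMP, shear stress or hormones. The set described here holds 10 of the 14217 genes on the array with a usable symbol: the nuclear receptors Nr4a1, Nr4a2 and Nr4a3 and the zinc finger factors Klf2, Klf4, Klf5, Klf6, Klf9, Klf10 and Klf15. They were chosen by name, and every probe set annotated to 1 of the 10 symbols was taken, which gave 26 of the 31042 probe sets tested. A probe set is a group of short array features that together measure 1 transcript. Of the 10 genes, 7 had several probe sets. Of the 26 probe sets, 18 had a mean log2 value of at least 6 over all arrays, and the other 8 were dimmer.

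Messenger RNA was measured on 6 Affymetrix rat arrays of primary Schwann cells, the glia that ensheathe and myelinate peripheral axons, taken from sciatic nerve. All cells, those given vehicle included, carried RafER, an inducible allele in which the kinase Raf is fused to a tamoxifen-responsive estrogen receptor domain. After 24 h in minimal medium, 3 cultures received tamoxifen for 24 h and 3 received ethanol vehicle for 24 h, in 3 independent experiments. The comparison asks what Raf activation changes. No cells lacking RafER were analysed here, and effects of tamoxifen itself and of Raf therefore cannot be told apart. The source labels speak of treated rats, whereas the design describes treatment in the dish, which is the reading used here. Rat strain and age, and how RafER was introduced and driven, are not given in the sources used here. Only 24 h was sampled, so earlier levels were not measured.

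Nr4a1 (Nur77), Nr4a2 (Nurr1) and Nr4a3 (Nor1) are orphan nuclear receptors whose activity is set mainly by how much protein is made rather than by a ligand, and they bind the NBRE element as monomers. Krüppel-like factors bind GC-rich and CACCC elements through zinc fingers, and members of the family act as activators or repressors. Klf2 and Klf4 are best known from endothelium, where flow induces them through the kinase ERK5, and Klf9 and Klf15 are known as targets of the glucocorticoid receptor.

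Values are log2 expression after RMA, on which 1 unit is a doubling, and levels are not compared between probe sets. Differences are tamoxifen minus vehicle, with the standard error (SE) of limma's moderated linear model, and a change was called at an adjusted p of 0.05 over all 31042 probe sets. Of these, 11.5% were called higher and 12.9% lower, 24.4% in all, and the arrays of the groups did not overlap for 42.4%. One array stood apart in RNA quality: vehicle array 1 had a mean 3′ minus 5′ difference of 0.84 log2 units over 3 control transcripts, against 0.16 to 0.27 on the other 5 arrays. Its part was examined only by leaving it out and by a fit with array weights, in which it had the lowest weight of the 6 (0.478). With weights, 3 member probe sets were higher and 5 lower, as without them. With vehicle array 1 left out, 3 were higher and 3 lower. Nr4a1 (limma adjusted p = 0.0762) and the Nr4a3 probe set 1369067_at (0.0577) then no longer passed.

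The labelled cell type was checked against marker genes. Sox10, the lineage factor of Schwann cells, averaged 10.68 ± 0.20 after tamoxifen and 11.58 ± 0.72 after vehicle, and S100b averaged 12.35 ± 0.45 after tamoxifen and 13.11 ± 0.081 after vehicle (log2 ± SD, n = 3 each). Of 6 Schwann cell markers measured, 2 fell (Ngfr and S100b), with list means per array of 9.88 to 10.15 after tamoxifen and 10.59 to 10.78 after vehicle. In the fit blocked by experiment 3 were lower, as Sox10 was then called too (difference -0.90, adjusted p = 0.104 without the block and 0.0300 with it). Without the block, the count was 0 without tamoxifen array 2 and 1 without tamoxifen array 1, vehicle array 2 or vehicle array 3. Erbb3 averaged 10.15 ± 0.23 after tamoxifen and 10.21 ± 0.35 after vehicle (SD, n = 3 each). Neither it nor Gfap and Foxd3 passed, with or without the block. Over all genes, each read by its brightest probe set, 13.9% were called higher and 17.3% lower. In bulk cultures, fewer cells of a type and less RNA per cell cannot be told apart. Among 8 fibroblast markers 2 rose and 3 fell, with list means of 7.11 to 7.21 after tamoxifen and 7.25 to 7.51 after vehicle. Leaving out 1 array gave 1 to 2 higher and 1 to 3 lower, the fewest without tamoxifen array 2. The collagen genes Col1a1 and Col3a1 averaged 11.92 ± 0.27 and 6.30 ± 0.44 after tamoxifen, against 13.15 ± 0.25 and 8.68 ± 1.08 after vehicle, and both fell, as did Col1a2. Fbln1 averaged 7.96 ± 0.23 after tamoxifen and 6.35 ± 0.11 after vehicle and rose, as did Pdgfra (SD, n = 3 each). Col1a2 was not called in the fit blocked by experiment (0.0530), and the other probe sets of Col1a2 and Fbln1 did not pass. The part of other cell types in the results was not tested. Dcn and Lum, which are also on the list, averaged 4.25 and 3.43 after tamoxifen, against 4.05 and 3.44 after vehicle, in a table whose lowest value is 2.99. None of 8 macrophage or 6 smooth muscle markers passed the limma test, with 2 and 1 at an unadjusted p below 0.05, and none passed in the fit blocked by experiment. The macrophage list means were 4.76 to 4.85 after tamoxifen and 4.77 to 4.80 after vehicle, and those of smooth muscle were 5.97 to 6.34 after tamoxifen and 5.96 to 6.38 after vehicle. The smooth muscle markers Tagln and Acta2 read above these means. Tagln averaged 8.97 ± 0.88 after tamoxifen and 9.51 ± 1.24 after vehicle, highest in experiment 3 in both groups. Acta2 averaged 7.52 ± 0.099 after tamoxifen and 7.53 ± 0.15 after vehicle (SD, n = 3 each).

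After 24 h of tamoxifen, Nr4a3 was 4.04-fold lower and Nr4a1 was 1.35-fold lower, Klf2 was lower on 2 of its 5 probe sets, by 12.2-fold on the brighter of them, and Klf5 was 2.51-fold higher on its brightest probe set. Nr4a2, Klf4, Klf6, Klf9, Klf10 and Klf15 did not pass the test on any probe set. In the fit blocked by experiment, Klf4 was called higher (limma adjusted p = 0.0168) and Klf15 lower on 1368249_at (0.0180). Nr4a1 did not pass there (0.0739). Without the block, 3 of the 26 probe sets rose, 5 fell and 18 did not pass, so that 8 were called where the whole table gives 24.4%. The groups did not overlap for 10 of the 26. With each gene read by the probe set of highest mean level, 1 of the 10 rose (Klf5) and 2 fell (Nr4a1 and Nr4a3). Over all 14217 genes read this way 13.9% rose and 17.3% fell, 31.2% in all. The groups did not overlap for 4 of the 10 genes, against 49.1% of all genes. These shares are near those of the whole table. The median difference of the 10 was -0.19, and that of all genes was 0.012.

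**Figure D1:**
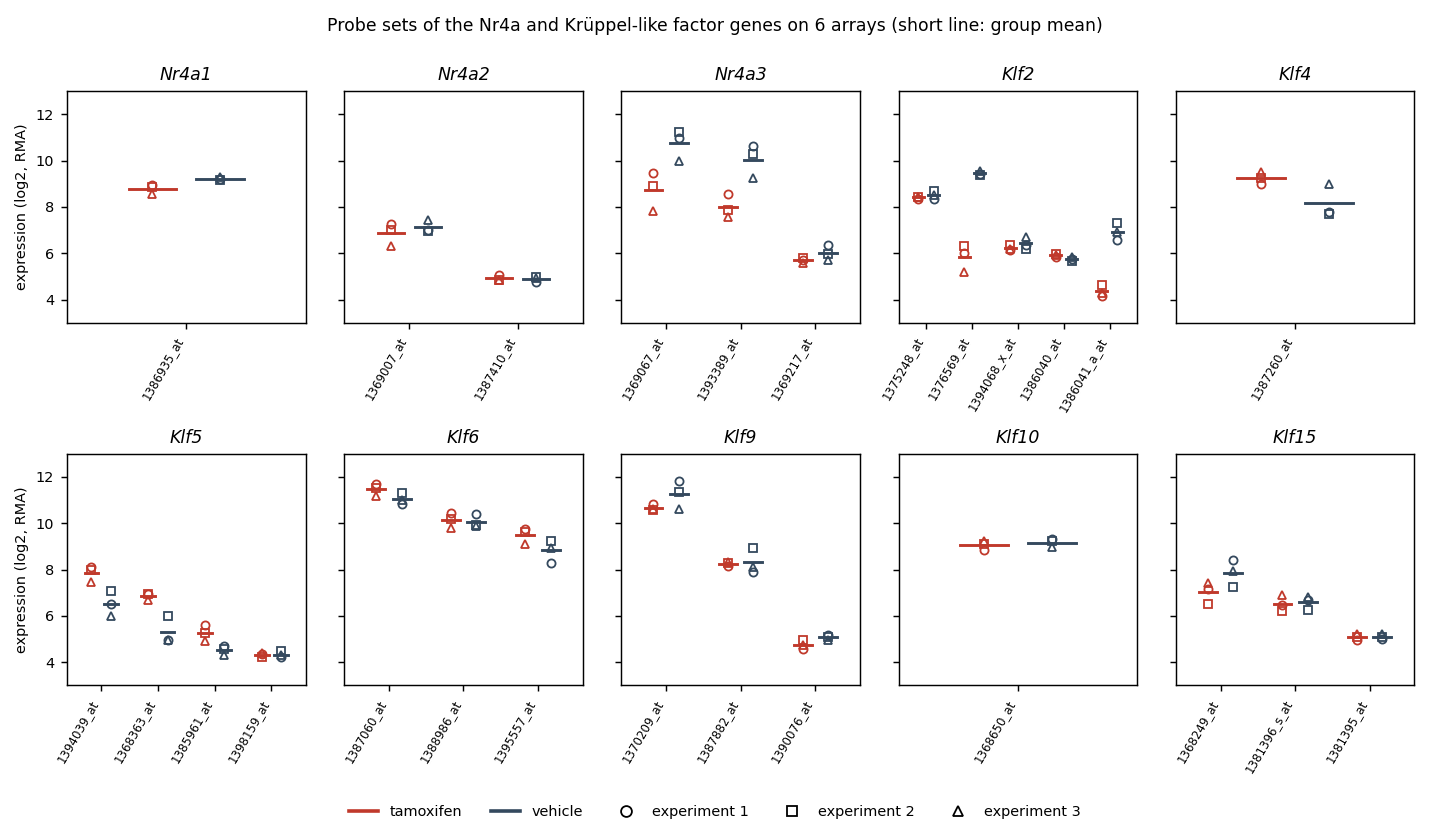
Expression (log2, RMA) of each of the 26 probe sets on all 6 arrays, with tamoxifen in red on the left of vehicle in dark blue, symbols for the experiment number and a short line at each group mean. Klf2 has 2 probe sets with wide gaps between the groups and 3 without, Nr4a3 is lower after tamoxifen on its brighter probe sets, and Klf5 is higher on 3 of 4.

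Nr4a3, a receptor known as an early gene of muscle, vessel wall and brain, had the largest difference of the Nr4a genes. Its brightest probe set, 1369067_at, read 9.48, 8.91 and 7.82 after tamoxifen in experiments 1, 2 and 3, against 10.99, 11.25 and 10.01 after vehicle. Every tamoxifen array lay below every vehicle array, and experiment 3 was the lowest in both groups. The difference was -2.01 ± 0.48 (SE, limma adjusted p = 0.0245). A further probe set, 1393389_at, read 8.58, 7.87 and 7.58 after tamoxifen and 10.63, 10.27 and 9.24 after vehicle, a difference of -2.04 ± 0.40 (limma adjusted p = 0.0123). Its groups did not overlap either, and experiment 3 was again lowest in both. Within experiments 1, 2 and 3 the 1369067_at differences were -1.51, -2.35 and -2.18, and those of 1393389_at were -2.05, -2.40 and -1.66. The first probe set no longer passed when tamoxifen array 2 (0.0682) or 3 (0.0521) or vehicle array 1 (0.0577) or 2 (0.0743) was left out (limma adjusted p in parentheses). Probe set 1393389_at passed without any single array, but narrowly without tamoxifen array 2 (0.04999) or 3 (0.0453) or vehicle array 2 (0.0419). In the unmoderated test neither passed (adjusted p = 0.117 and 0.0812). The dim 1369217_at, with means of 5.69 after tamoxifen and 6.02 after vehicle, did not pass, and the 95% confidence interval of its difference was -0.74 to 0.083.

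Nr4a1, a classic early gene of growth factor stimulation, fell by much less. It read 8.96, 8.87 and 8.56 after tamoxifen and 9.19, 9.17 and 9.31 after vehicle. The groups did not overlap, and tamoxifen array 3 was the lowest. The difference was -0.43 ± 0.12 (limma adjusted p = 0.0474), and it no longer passed in the fit blocked by experiment (adjusted p = 0.0739). It also failed when tamoxifen array 2 (0.0958) or 3 (0.0975) or vehicle array 1 (0.0762), 2 (0.0911) or 3 (0.127) was left out. With both arrays of experiment 1 left out it was -0.53 and did not pass (0.0690). All 3 experiments gave a lower value after tamoxifen, with differences of -0.23, -0.30 and -0.75.

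Nr4a2, known for its part in dopamine neurons of the brain, did not pass. Its brighter probe set, 1369007_at, read 7.27, 7.01 and 6.33 after tamoxifen, against 6.997, 6.97 and 7.45 after vehicle. The groups overlapped, and the experiments disagreed, with differences of 0.28, 0.034 and -1.12. The 95% confidence interval of the difference was -0.89 to 0.35. The other probe set, 1387410_at, was dim, with means of 4.92 after tamoxifen and 4.89 after vehicle.

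**Figure D2:**
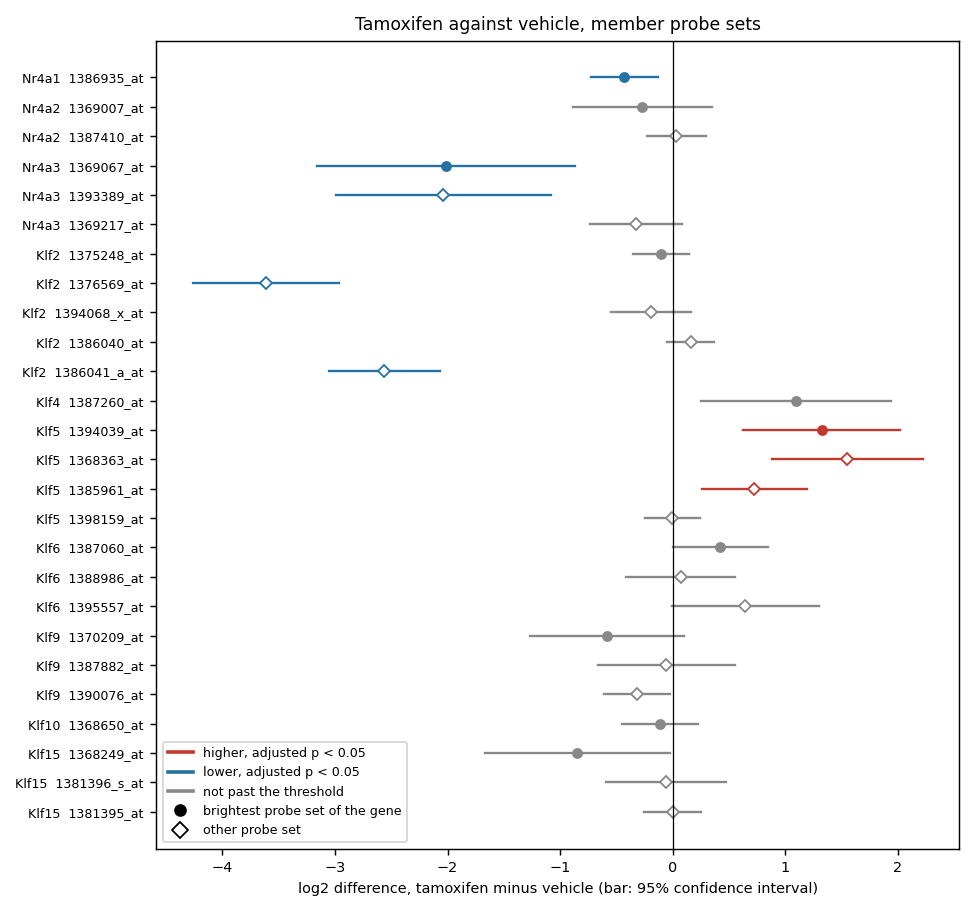
Log2 difference, tamoxifen minus vehicle, of each of the 26 probe sets with its 95% confidence interval, coloured by whether it passed an adjusted p of 0.05. The lowest are the Klf2 probe sets 1376569_at and 1386041_a_at at -3.61 and -2.56, and the highest is Klf5 1368363_at at 1.55.

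The promoter of Nr4a1 is shown because cAMP is known to induce this gene through elements like the cAMP response element (CRE). These are the 250 bases before the RefSeq start of rat Nr4a1 (GRCr8, chr7:134259888-134260137, plus strand), with capitals at the CRE half-site TGACG, which here lies on the opposite strand and so reads CGTCA.
Nr4a1: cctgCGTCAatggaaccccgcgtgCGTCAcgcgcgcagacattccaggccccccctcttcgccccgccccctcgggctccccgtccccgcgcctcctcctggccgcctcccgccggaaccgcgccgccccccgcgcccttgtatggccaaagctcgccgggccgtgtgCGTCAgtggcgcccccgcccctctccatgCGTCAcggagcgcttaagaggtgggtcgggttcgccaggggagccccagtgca
The half-site occurred 4 times, with first bases 246, 226, 82 and 53 bases before the start. On either strand, at least 1 half-site stood in the same window of 18.2% of 33469 RefSeq promoters, and 4 or more in 0.173%. The window also held 3 GC boxes (GGGCGG, in 30.5% of promoters) and 1 ETS core (CCGGAA, in 12.6%), and no match overlapped one of another motif. The full CRE, TGACGTCA (1.59% of promoters), and the NBRE, AAAGGTCA (1.24%), stood in none of the 7 member windows that the promoter table holds. It holds no window of Klf2, Nr4a3 or Klf10, so these were not searched for any motif. A match is a run of letters and not a measured binding site.

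Klf2, a factor that holds endothelial cells and lymphocytes in a quiescent state, held the probe set with the largest difference of the 26, but its 5 probe sets did not read alike. On that probe set, 1376569_at, it read 6.02, 6.32 and 5.197 after tamoxifen, against 9.43, 9.39 and 9.55 after vehicle. The vehicle arrays lay close together and far above all tamoxifen arrays. The difference was -3.61 ± 0.27 (limma adjusted p = 0.000545). The dimmer 1386041_a_at read 4.15, 4.63 and 4.30 after tamoxifen and 6.58, 7.29 and 6.90 after vehicle, a difference of -2.56 ± 0.21 (limma adjusted p = 0.000644). Its tamoxifen values were near the low end of the table, where a level may be background and a difference may understate the change. The groups were wide apart, and each experiment gave a lower value after tamoxifen, with differences of -2.42, -2.66 and -2.60. Both probe sets were called under every alternative that kept them, with differences of -3.85 to -3.29 and of -2.73 to -2.38.

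The other 3 Klf2 probe sets did not pass, the brightest among them. That one, 1375248_at, read 8.36, 8.45 and 8.43 after tamoxifen and 8.36, 8.69 and 8.50 after vehicle. The groups overlapped, and the 95% confidence interval of the difference was -0.36 to 0.15, which leaves out a change of the size read by 1376569_at. For 1394068_x_at the difference was -0.19 (-0.55 to 0.16), and for the dim 1386040_at it was 0.16 (-0.049 to 0.37). The annotation gives 1394068_x_at and 1386041_a_at the same sequence accession although they differ in reading, and the suffix x marks probes that may match other transcripts. None of the 5 is annotated to a RefSeq mRNA of Klf2, and which of them lie in the mature transcript was not tested. With all probe sets of a gene averaged, Klf2 differed by -1.26 ± 0.11 (limma adjusted p = 0.000598), a mean of readings that disagree.

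Endothelial markers are given beside Klf2, which endothelium is known to express strongly. Of 7 measured, 1 fell, Egfl7 with a difference of -0.49 ± 0.11 (limma adjusted p = 0.0175), a call that was absent without tamoxifen array 1 or 3. It averaged 7.755 ± 0.069 after tamoxifen and 8.24 ± 0.16 after vehicle (SD, n = 3 each). Its other probe set was called lower too (-0.69, limma adjusted p = 0.00908). The list means were 5.15 to 5.23 after tamoxifen and 5.18 to 5.199 after vehicle. Pecam1, a common endothelial marker, averaged 4.27 ± 0.058 after tamoxifen and 4.33 ± 0.10 after vehicle, and Kdr averaged 4.49 ± 0.060 after tamoxifen and 4.52 ± 0.084 after vehicle (SD, n = 3 each). Both are near the low end of the table. Cdh5 was not analysed here.

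Klf4, one of the factors that can reprogram cells to pluripotency, read 9.00, 9.23 and 9.51 after tamoxifen and 7.77, 7.69 and 9.00 after vehicle. The groups did not overlap, but vehicle array 3 lay only just below tamoxifen array 1. The difference was 1.10 ± 0.35 and did not pass (limma adjusted p = 0.0661), although its 95% confidence interval, unadjusted for the number of probe sets, was 0.26 to 1.94. Within the experiments it was 1.23, 1.54 and 0.52, and in the fit blocked by experiment it was called higher (adjusted p = 0.0168). Leaving out vehicle array 3 gave a called difference of 1.52 (adjusted p = 0.00419). Klf4 had a single probe set, which is annotated to its RefSeq mRNA.

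Klf5, a growth-associated factor of epithelium and smooth muscle, rose on 3 of 4 probe sets. The brightest, 1394039_at, read 8.09, 7.98 and 7.46 after tamoxifen, against 6.51, 7.06 and 5.98 after vehicle. The groups did not overlap, and experiment 3 was lowest in both. The difference was 1.33 ± 0.29 (limma adjusted p = 0.0186). The probe set annotated to the RefSeq mRNA, 1368363_at, read 6.96, 6.93 and 6.67 after tamoxifen and 4.97, 5.98 and 4.95 after vehicle, a difference of 1.55 ± 0.28 (limma adjusted p = 0.00922). Vehicle array 2 was the highest of its group, still below all tamoxifen arrays. The dim 1385961_at differed by 0.72 ± 0.20 (limma adjusted p = 0.0375), and 1398159_at by -0.0048 with an interval of -0.25 to 0.24.

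The Klf5 calls depended on which arrays entered. Without tamoxifen array 1 or 2, 1394039_at did not pass (limma adjusted p = 0.0623 and 0.0695). For 1385961_at the same held without tamoxifen array 1 (0.0806) or 2 (0.105) or vehicle array 2 (0.0838) or 3 (0.103), while 1368363_at passed without any single array. With both arrays of experiment 1 left out, none of the 3 passed, at differences of 1.20, 1.34 and 0.63 for 1394039_at, 1368363_at and 1385961_at (limma adjusted p = 0.104, 0.0609 and 0.0627).

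The promoter of Klf5 is shown because it is the gene that rose, with capitals at the CACCC box that Krüppel-like factors are known to bind, here on the opposite strand and so read as GGGTG. These are the 250 bases before the RefSeq start (GRCr8, chr15:82471831-82472080, plus strand).
Klf5: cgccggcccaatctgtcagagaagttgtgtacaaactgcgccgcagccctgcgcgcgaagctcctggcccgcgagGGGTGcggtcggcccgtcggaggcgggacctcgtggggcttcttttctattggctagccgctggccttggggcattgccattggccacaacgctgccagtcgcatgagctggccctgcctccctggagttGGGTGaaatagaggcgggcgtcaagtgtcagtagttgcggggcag
The box occurred 2 times, with first bases 175 and 45 bases before the start, and 1 CRE half-site lay 27 bases before the start without overlapping it. On either strand the box is common, in 49.2% of the 33469 windows and in 3 of the 7 member windows (Klf5, Klf9 and Klf15). Among these 7 windows, which leave out Klf2, Nr4a3 and Klf10, the FoxO site GTAAACA (3.21% of promoters) stood in that of Klf9. The CArG box of serum response factor (1.5%) stood in that of Klf6.

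**Figure D3:**
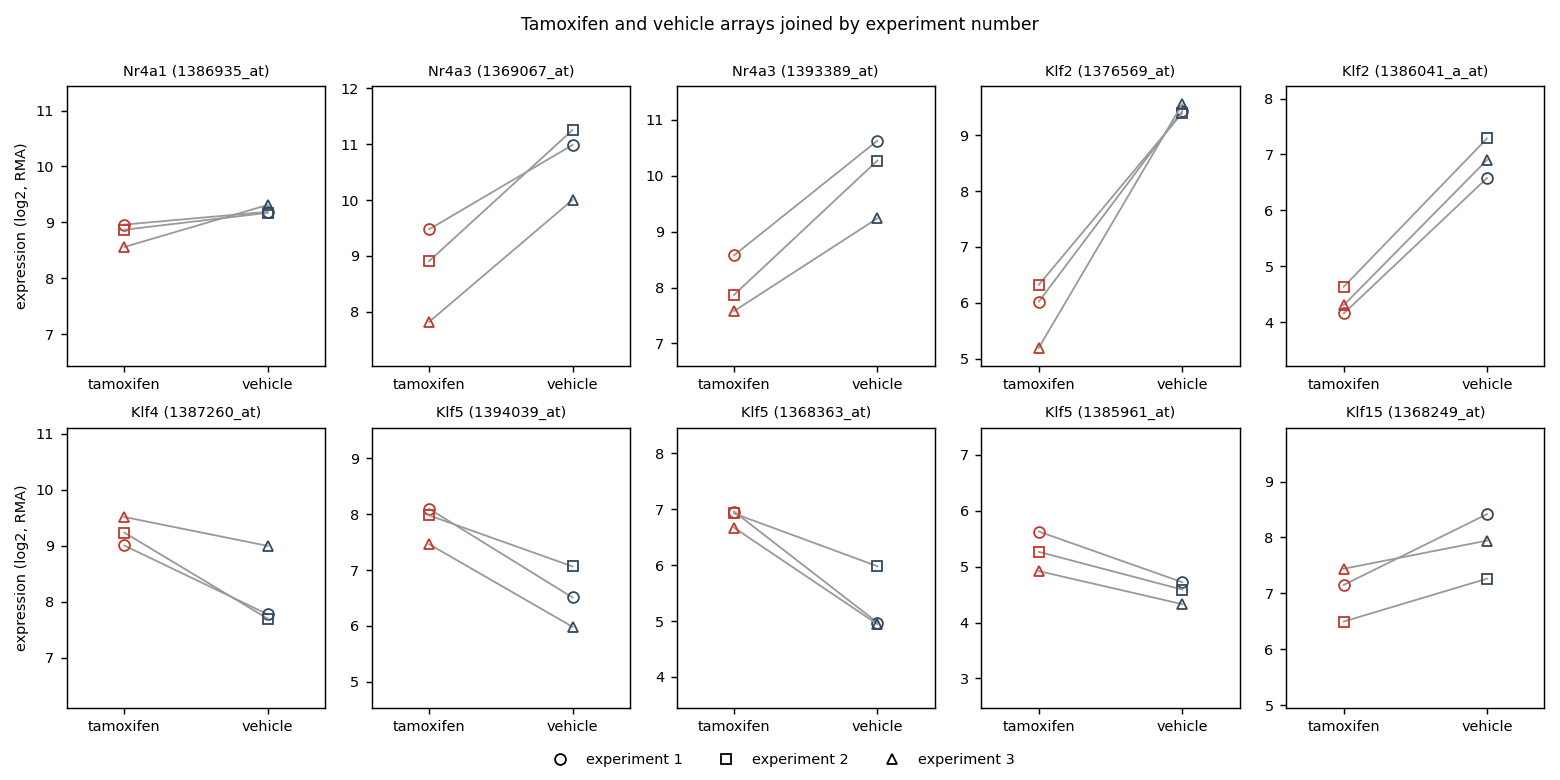
Expression (log2, RMA) of the 10 probe sets called with or without the block by experiment, with tamoxifen on the left and vehicle on the right, and a line joining the arrays of each experiment. Every panel spans 5 log2 units, and within each panel all 3 lines run the same way, those of Nr4a1 least steeply on average.

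Klf6, a widely expressed factor known from injured tissue, did not pass. On 1387060_at it read 11.70, 11.52 and 11.17 after tamoxifen and 10.83, 11.30 and 11.001 after vehicle. The groups overlapped, and the difference was 0.42 (95% confidence interval 0.0031 to 0.84, limma adjusted p = 0.136). The other probe sets, 1388986_at and 1395557_at, gave 0.071 and 0.65 with adjusted p of 0.845 and 0.142. For 1395557_at the difference was 1.44 in experiment 1, whose vehicle array has the weaker 5′ signal, against 0.35 and 0.15 in experiments 2 and 3.

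Klf10, first found as a gene that TGF-beta induces early, did not pass. It read 8.83, 9.11 and 9.24 after tamoxifen, against 9.30, 9.23 and 8.97 after vehicle. The groups overlapped, and the 95% confidence interval of the difference was -0.45 to 0.23.

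Klf9, a repressor that thyroid hormone and glucocorticoids induce, read 10.82, 10.59 and 10.61 after tamoxifen and 11.81, 11.36 and 10.60 after vehicle on 1370209_at. The tamoxifen arrays lay close together, and vehicle array 3 fell among them while the other vehicle arrays were higher. The difference was -0.58 ± 0.29 (95% confidence interval -1.27 to 0.10, limma adjusted p = 0.201), and without vehicle array 3 it was -0.91 and called lower (0.0167). Its other probe sets gave -0.057 and -0.32, neither past the threshold.

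Klf15, a regulator of glucose and amino acid metabolism, read 7.15, 6.495 and 7.44 after tamoxifen and 8.42, 7.26 and 7.94 after vehicle on 1368249_at. Tamoxifen array 3 lay above vehicle array 2, so the groups overlapped, but within each experiment the tamoxifen array was lower, with differences of -1.27, -0.77 and -0.50. The difference was -0.85 ± 0.34 (limma adjusted p = 0.129), and in the fit blocked by experiment it was called lower (adjusted p = 0.0180). The other Klf15 probe sets, which share an accession, gave -0.059 (-0.59 to 0.47) and 0.0010 (-0.25 to 0.25).

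The lists that follow read each gene by its brightest probe set, and their counts stand against 13.9% of all genes higher and 17.3% lower, 31.2% in all. They were chosen with earlier results of these data known, so a count above these shares is a description only. Sik1, Bhlhe40, Per1 and Pdk4 are shared between lists. Of 11 other KLF and SP factors measured, 1 rose and 1 fell, with a median difference of 0.029. Klf16 rose by 0.97 ± 0.14 (limma adjusted p = 0.00446). Klf11, a close relative of Klf10, fell by 1.54 ± 0.32 (0.0144), and its other probe sets gave -0.48 (0.0824) and -0.68 (0.0387). Klf7, a factor of growing neurons, differed by 0.94 ± 0.29 on its brightest probe set and did not pass (0.0564), but was called in the fit blocked by experiment (0.0415). Its other probe sets gave 1.10 (0.0359), 1.10 (0.0880) and -0.046 (0.802).

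Of 12 genes for RXR partners of Nr4a1 and Nr4a2 and for cofactors of KLF proteins, 1 rose and 1 fell, with a median of -0.52. Ctbp2, which encodes a co-repressor that several KLF repressors bind, rose by 2.13 ± 0.17 (limma adjusted p = 0.000641). Sin3a, the scaffold of a histone deacetylase complex, fell by 0.83 ± 0.19 (0.0226), but did not pass when tamoxifen array 2 (0.0819) or 3 (0.0775) was left out, and its other probe sets did not pass. Lower calls in this list numbered 0 to 3 when 1 array was left out, the most without vehicle array 1, and 4 in the fit blocked by experiment. Rxra, Rxrb and Rxrg differed by 0.11, -0.58 and -0.98 and did not pass (0.582, 0.0669 and 0.115), but Rxrb was called lower in the fit blocked by experiment (0.0302). Ep300 and Crebbp were also called lower there (0.00474 and 0.0298), with differences of -0.75 and -0.50 that did not pass without the block. Their other probe sets did not pass. Hdac1 differed by -0.53 on its brightest probe set and did not pass (0.126), but its other probe set was called lower (-0.76, 0.00167).

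Among 27 other early response genes, 12 passed as higher and 6 as lower, 66.7% in all, where 31.2% of all genes were called. The transcription factor genes Hes1 and Myc rose by 3.39 ± 0.50 and 3.31 ± 0.18, and Phlda1 rose by 2.85 ± 0.18 (limma adjusted p = 0.00427, 0.000185 and 0.000299). Rgs2, a regulator of G protein signals, fell by 1.77 ± 0.16 (0.000889), and the matricellular gene Ccn1 fell by 1.44 ± 0.23 (0.00552). Atf3, a stress-induced partner of AP-1, fell by 1.74 ± 0.50 (0.0461). That call failed when tamoxifen array 2 (0.0717) or vehicle array 1 (0.0967), 2 (0.112) or 3 (0.0788) was left out. Lower genes in the list numbered 3 to 5 when 1 array was left out, the fewest without vehicle array 2, and 9 in the fit blocked by experiment.

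The cAMP and CREB axis, a known route to Nr4a genes, had 2 of 16 genes higher and 1 lower, with a median of 0.016. Sik1, a kinase that restrains CREB coactivators, rose by 0.63 ± 0.10 (limma adjusted p = 0.00648), while its other probe set gave 0.29 and did not pass (0.0818). Prkacb, a catalytic subunit of protein kinase A, fell by 0.63 ± 0.12 (0.0126) on the brightest of 3 probe sets, and the rest gave 0.053 and -0.42 and did not pass. The regulatory subunit gene Prkar2b rose by 1.49 ± 0.41 (0.0407). When any array other than vehicle array 3 was left out it did not pass, at an adjusted p of 0.0679 to 0.129. Crem, itself an early cAMP gene, differed by -0.80 ± 0.35 and did not pass (0.149), but was called lower in the fit blocked by experiment (0.0133). Pde4b differed by 0.98 ± 0.32 and did not pass (0.0691), but was called higher in the blocked fit (0.0354). Its other probe set was called higher without the block (1.335, 0.00869). The blocked fit gave 3 higher and 2 lower genes in this list.

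In the MEK5, ERK5 and MEF2 axis, the known route to Klf2 and Klf4 in endothelium, none of 10 genes passed the limma test on its brightest probe set, 2 had an unadjusted p below 0.05, and none passed in the fit blocked by experiment. Another probe set of Map3k3, a kinase upstream of MEK5, was called lower (-0.41, adjusted p = 0.0432). Without vehicle array 1, 2 of the 10 were called higher. With quantile normalization, with array weights, with the filter on dim probe sets and without both arrays of experiment 1, 1 was called higher. Mef2d differed by 0.57 ± 0.17 and did not pass (0.0562), although its groups did not overlap. Its other probe set gave 0.27 and did not pass (0.138). Mapk7, which encodes ERK5, differed by -0.12 (95% confidence interval -0.39 to 0.16).

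Among 15 genes of the glucocorticoid receptor and its targets, 2 rose and 5 fell. The receptor gene Nr3c1 fell by 2.12 ± 0.27 (limma adjusted p = 0.00278), while its other probe set gave -0.70 and did not pass (0.154). Ddit4, a stress-induced brake on mTOR, fell by 2.24 ± 0.22 (0.00123). The MAP kinase phosphatase gene Dusp1 fell by 1.88 ± 0.45 (0.0237), but did not pass without tamoxifen array 2 (0.0528) or 3 (0.0536) or vehicle array 1 (0.0572) or 2 (0.0724). The kinase gene Sgk1 and the cortisone-reducing enzyme gene Hsd11b1 rose by 1.63 ± 0.22 (0.00348) and 1.498 ± 0.26 (0.00791). Fkbp5 and Per1, common readouts of glucocorticoids, differed by 0.49 and 0.13 and did not pass (0.417 and 0.292).

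FoxO factors are known to drive Klf2 in lymphocytes. Whether they have a part in the Klf2 readings here was not tested. Of 16 genes in the FoxO list 9 fell and 1 rose, with a median of -0.84. Over all genes 17.3% fell. Txnip, which limits glucose uptake, averaged 8.40 ± 1.04 after tamoxifen and 11.73 ± 0.55 after vehicle (SD, n = 3 each) and fell by 3.33 ± 0.53 (limma adjusted p = 0.00565). The growth arrest gene Gadd45a fell by 2.72 ± 0.23 (0.000757) and the stress gene Sesn1 by 2.42 ± 0.18 (0.000550). Insr, the insulin receptor gene, rose by 0.75 ± 0.14 (0.0114), but did not pass without both arrays of experiment 1 (0.0655). Its other probe set gave 0.74 and did not pass (0.0529). Of the FoxO factor genes, Foxo4 fell by 0.80 ± 0.21 (0.0362). Foxo3 was called lower on its brightest probe set (-1.66), whereas its others gave -0.20 and 0.27 and did not pass, and Foxo1 differed by -0.20 (0.347). Lower genes in the list numbered 6 to 9 when 1 array was left out, the fewest without tamoxifen array 2 or vehicle array 2 or 3.

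Of 8 early genes of TGF-beta, 4 rose and 1 fell. Pmepa1, which dampens SMAD signals, rose by 2.26 ± 0.23 (limma adjusted p = 0.00129), the repressor gene Bhlhe40 rose by 1.79 ± 0.44 (0.0281) and Ldlrad4 rose by 1.31 ± 0.32 (0.0256). Bambi, which encodes a decoy receptor, fell by 1.72 ± 0.33 (0.0108), but did not pass without both arrays of experiment 1 (0.0609). Without tamoxifen array 2, vehicle array 1 or vehicle array 2 the list had 2 higher genes, as neither Bhlhe40 (0.0613, 0.0644 and 0.0789) nor Ldlrad4 (0.0667, 0.0555 and 0.0540) passed.

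**Figure D4:**
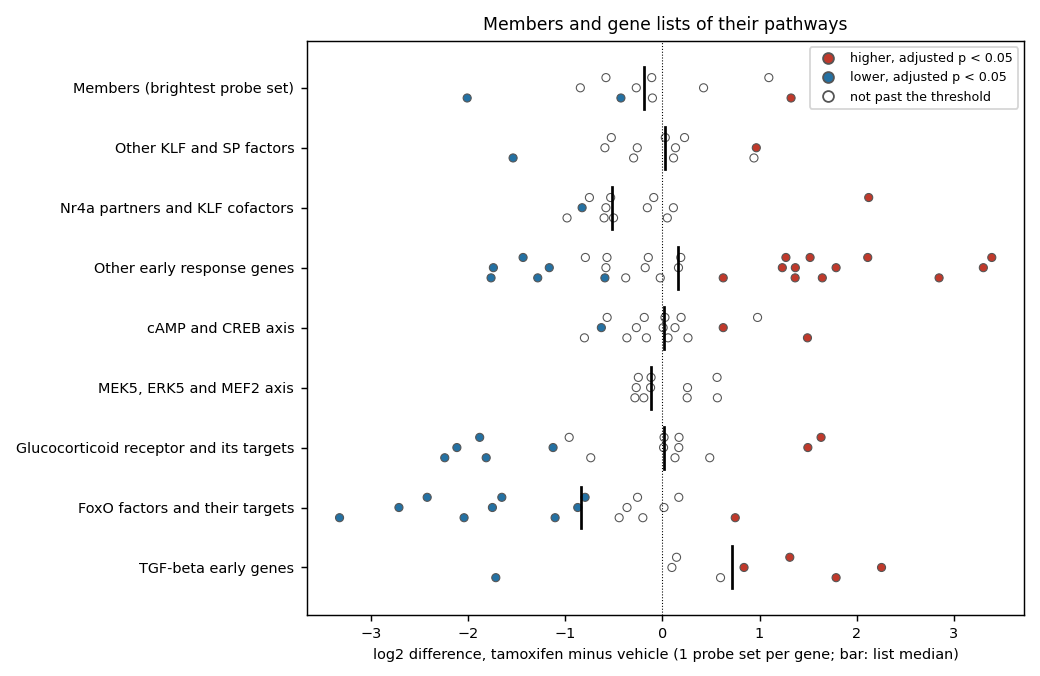
Log2 difference, tamoxifen minus vehicle, of each measured gene by its brightest probe set, for the 10 genes and 8 gene lists, with filled points past an adjusted p of 0.05 and a bar at each list's median. The 10 genes spread on both sides of 0, and the FoxO list has its median at -0.84.

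For the largest rise and the largest fall among the 10 genes by brightest probe set, Klf5 and Nr4a3, the genes with the closest profile over the 6 arrays were sought, by the Euclidean distance between profiles centred on their vehicle means. The nearest to Nr4a3 were Dusp1 (distance 0.43 log2 units), the neurotrophin gene Bdnf (0.54), Prr5l (0.57) and the kinase gene Pak3 (0.72). Their differences were -1.88 ± 0.45, -1.85 ± 0.54, -1.76 ± 0.41 and -1.72 ± 0.42, and each failed the test when tamoxifen array 2, vehicle array 1 or vehicle array 2 was left out, at limma adjusted p between 0.0506 and 0.132. Nearest to Klf5 were the Notch modifier gene Lfng (0.42), Tmeff1 (0.48), the signal peptidase gene Sec11c (0.55) and the laminin receptor subunit gene Itga7 (0.57). These differed by 1.24 ± 0.18, 1.46 ± 0.21, 1.28 ± 0.18 and 1.13 ± 0.32, and Itga7 failed without tamoxifen array 1 (0.129) or 2 (0.127) or vehicle array 2 (0.0582) or 3 (0.0733). All 8 were picked for their likeness, so the values are a description.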

How the data were processed

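The deposited table held log2 expression values per probe set, which the authors made with RMA, per the submitters' processing notes (no version is given in the sources used here). Of 31099 probe sets, 57 manufacturer controls were left out. No detection calls were used, so a low value can be background, and the number of arrays limits the precision. Symbols came from the platform annotation (20826 probe sets with 1 symbol, 436 with several, left unnamed, and 9780 with none). All 26 member symbols matched RefSeq (GRCr8), the source of the promoter sequences, which held 7 of the 10 members (not Klf2, Nr4a3 and Klf10).

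The groups were compared with limma 3.58.1 (lmFit, eBayes) under R 4.3.3, two-sided and with no covariate, and p-values were adjusted by the Benjamini-Hochberg method across the 31042 probe sets. They measure the spread between these cultures. Numbers in the sample titles were read as the experiment, since same-numbered arrays deviated together from their group means (correlations 0.26, 0.20 and 0.28), and a fit blocked by experiment served as an alternative. Further alternatives were leaving out each array, median centring, quantile normalization, a filter on probe sets with a mean log2 under 6, other variance models, array weights, and other rules for the probe set of a gene. Leaving out both arrays of experiment 1 was added after seeing the data. The members and lists were chosen with earlier results of these data known. Named genes are the members, up to 3 called genes per list and direction, markers, and the 4 nearest profiles to the largest rise and fall. Klf7, Rxra, Rxrb, Rxrg, Ep300, Crebbp, Hdac1, Crem, Pde4b, Mapk7, Mef2d, Fkbp5, Per1, Foxo1, Foxo3, Foxo4 and Map3k3 were named after their values were seen. The procedure was tested on simulated data.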

Additional observations from a re-analysis of the deposited data

How the results depend on the processing

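Across 356 pairings of a member probe set with an alternative, 298 kept their direction and their side of the threshold, 29 lost a call, 5 gained one and 24 changed sign, all of the last without a call on either side. The 2 called Klf2 probe sets kept their calls under every alternative that retained them. The causes of the changes were not tested. Reading the experiments as pairs, the replicate block gave 2 higher genes in place of 1, and apart from Nr4a1, Klf4 and Klf15 it changed no other call of a member. Leaving out 1 array gave 1 to 3 higher and 3 to 5 lower member probe sets, 0 to 2 higher and 0 to 2 lower member genes, and 2427 to 3424 higher and 2668 to 3771 lower probe sets in the whole table, where all arrays gave 3574 and 4004. The unmoderated test called 0 higher and 2 lower member probe sets, 0 higher and 0 lower member genes, and 1957 higher and 1715 lower probe sets in all; at an unadjusted p below 0.05 in limma's moderated test, 3 member genes were higher and 3 lower. Without both arrays of experiment 1, 0 member probe sets and 0 member genes were higher and 1 gene was lower. Quantile normalization and eBayes with trend and robust each left 1 lower gene. Leaving out dim probe sets gave 2 higher genes, with Klf4 at an adjusted p of 0.0440.

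Changes of sign concerned small differences. For Nr4a2 1387410_at the difference was -0.0033 with median centring, -0.018 with quantile normalization, -0.017 with array weights and -0.11 without experiment 1. For Klf15 1381395_at it was -0.036, -0.056 and -0.029 with the first 3 of these settings. Klf9 1387882_at gave 0.011 with quantile normalization, and without experiment 1 Klf10 gave 0.071 and Klf15 1381396_s_at gave 0.012. With 1 array left out, the ranges were -0.47 to 0.0019 for Nr4a2 1369007_at, -0.047 to 0.082 for Nr4a2 1387410_at, -0.067 to 0.065 for Klf5 1398159_at, -0.074 to 0.24 for Klf6 1388986_at, -0.26 to 0.25 for Klf9 1387882_at, -0.21 to 0.0028 for Klf10 1368650_at, -0.25 to 0.11 for Klf15 1381396_s_at and -0.065 to 0.066 for Klf15 1381395_at.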
